A study of Mus musculus with 4 samples.

Results

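Members of a set of genes that carry long-chain fatty acids into cells, bind them, convert them to acyl-CoA and store them were followed in the RNA of tumor-infiltrating Tc1 and Tc9 cells. The set held *Cd36*, *Slc27a1*, *Slc27a4*, *Fabp4*, *Fabp5*, *Acsl1*, *Acsl4*, *Acsl5*, *Dgat1* and *Plin2*. Of these 10 genes, all but *Fabp4* were among the 15981 genes listed in at least 1 expression table. The members were chosen by gene symbol and picked on earlier results of these data, in which *Cd36* differed in the opposite direction to *Slc27a1* and *Slc27a4*. The differences between Tc9 and Tc1 cells are therefore given for these 10 genes as a description, without p-values, and nothing is read from how many of them changed.

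The study compared CD8+ T cells polarized in vitro as Tc1 cells, which make IFN-γ, or as Tc9 cells, which make IL-9. All cells were Thy1.1+ Pmel-1 T cells, which carry a transgenic T cell receptor for the melanoma antigen gp100 on a C57BL/6 background. Polarization used IL-2 for Tc1 cells and IL-4, TGF-β and an antibody to IFN-γ for Tc9 cells, both groups then had IL-2 in standard medium, and after 5 days in culture the cells were injected into Thy1.2+ B6 mice with 10-day subcutaneous B16 melanomas. The hosts of both groups also received adjuvant treatments, per the study cyclophosphamide, dendritic cells and IL-2, and Thy1.1+ cells were sorted from tumors 14 days after transfer. RNA of several mice was pooled into 2 libraries per group, so single animals cannot be compared, and the host animals' ages were not given in the sources used here.

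Long-chain fatty acids enter cells partly through the scavenger receptor CD36 and the fatty acid transport proteins of the SLC27 family, and cytosolic fatty acid binding proteins (FABP) carry them onward. Long-chain acyl-CoA synthetases (ACSL) join them to coenzyme A, which traps them in the cell and prepares them for oxidation or for synthesis of triglycerides and phospholipids. In CD8+ T cells, uptake and oxidation of fatty acids are known as features of memory cells, whereas CD36 on T cells in tumors is known for the import of oxidized lipids.

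The 4 tables reached different points in an ordered list of genes, which decided how many libraries each gene could be compared in. *Cd36*, *Fabp4* and *Plin2* were within reach of all 4 libraries, which share a range of 1681 listed genes. *Fabp5*, *Acsl1* and *Dgat1* lay in the 3467 genes reached by Tc1 replicate 2 and both Tc9 libraries. *Slc27a1* and *Slc27a4* lay in the 7964 genes reached by the replicate 2 libraries, and *Acsl4* and *Acsl5* were reached by Tc9 replicate 2 alone. The depth of the libraries was between 30822953 and 31927162 counts, so that 3 counts, the limit allowed by a count of 0, corresponded to 0.0952 to 0.0956 CPM (counts scaled by the TMM-adjusted depth of each library). The 7 T cell markers in reach of all 4 libraries were present in every library. Their sum was 1819 and 1861 CPM in the Tc1 libraries and 1963 and 1952 CPM in the Tc9 libraries. *Cd8a*, the one of the 7 with the highest counts, stood at 21622 and 21532 counts in Tc1 cells, against 21166 and 19330 in Tc9 cells. Of these 7 markers, *Cd3e* and *Cd3g* were called higher in Tc9 cells (log2 fold change 0.73 and 0.49) and *Cd2* was called lower (-0.44) by edgeR. *Thy1*, the other marker listed, was reached by the replicate 2 libraries only, with 32275 counts in Tc1 and 26427 in Tc9 cells. Over all 8 markers, the replicate 2 sum was 2889 CPM in Tc1 and 2794 CPM in Tc9 cells.

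The promoters of 3 of the genes are shown because these genes moved in opposite directions: *Cd36* and *Plin2* were lower and *Slc27a4* was higher in Tc9 cells. Each runs 5′ to 3′ on the strand of the gene, from 250 bases before to 50 bases after a RefSeq transcription start, in the GRCm38.p6 assembly, of which mm10 is the UCSC name. Capitals mark AGGTCA, the half-site of nuclear receptors such as the PPAR and RXR proteins, searched on both strands, so that TGACCT is the same site read from the other strand.
*Cd36*, chr5:17835847-17836146, minus strand: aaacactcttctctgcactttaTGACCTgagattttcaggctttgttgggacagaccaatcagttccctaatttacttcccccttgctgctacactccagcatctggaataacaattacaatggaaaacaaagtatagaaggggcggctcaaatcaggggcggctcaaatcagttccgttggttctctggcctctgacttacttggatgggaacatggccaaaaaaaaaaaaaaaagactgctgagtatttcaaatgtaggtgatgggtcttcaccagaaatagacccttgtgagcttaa
*Plin2*, chr4:86670010-86670309, minus strand: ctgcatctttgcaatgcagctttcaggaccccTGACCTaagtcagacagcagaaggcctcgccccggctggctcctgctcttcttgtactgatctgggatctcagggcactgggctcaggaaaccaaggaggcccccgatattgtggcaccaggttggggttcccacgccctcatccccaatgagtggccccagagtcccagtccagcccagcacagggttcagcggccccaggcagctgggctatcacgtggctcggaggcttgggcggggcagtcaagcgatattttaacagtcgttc
*Slc27a4*, chr2:29802384-29802683, plus strand: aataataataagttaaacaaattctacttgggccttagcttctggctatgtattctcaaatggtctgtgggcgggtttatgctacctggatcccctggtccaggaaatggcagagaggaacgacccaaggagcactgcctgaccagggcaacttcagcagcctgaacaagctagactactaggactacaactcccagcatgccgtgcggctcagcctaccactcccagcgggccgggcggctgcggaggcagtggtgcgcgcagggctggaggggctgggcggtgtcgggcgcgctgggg
The half-site began 228 bases before the start in *Cd36* and 218 bases before the start in *Plin2*. These were the only 2 of 10 windows, over the 7 member genes with a window, that held the 6 letters, which is 20% of them, whereas 16.3% of all 32851 RefSeq promoter windows of the same length held them. The windows of *Slc27a1*, *Slc27a4*, *Acsl1*, *Acsl4* and *Acsl5* did not hold them. The GC box GGGCGG, found in 35.7% of all windows, occurred 3 times in the *Slc27a4* window, 2 times in that of *Cd36* and 1 time in that of *Plin2*. A match to these letters is a description of the sequence and does not show that a factor binds there. The *Cd36* window lay inside the gene, which spans chr5:17781690-17888959 and has several starts, and its GC content of 43% was below the 45.7% to 61.7% that the middle of all windows spans. The transcription start of the *Plin2* window also lay inside its gene, which spans chr4:86626910-86670217. The GC content of *Plin2* was 60.7% and that of *Slc27a4* was 58.7%.

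*Cd36* encodes the scavenger receptor that binds long-chain fatty acids and oxidized lipoproteins at the cell surface. The Tc1 libraries held 111 and 118 *Cd36* counts, whereas the Tc9 libraries held 17 and 6. Both Tc9 libraries lay below both Tc1 libraries, which is a description of a gene picked on this contrast. In CPM, the level was 3.64 ± 0.167 (SD, n = 2) in Tc1 cells and 0.366 ± 0.248 (SD, n = 2) in Tc9 cells, a log2 fold change of -3.30 ± 0.35 (SE), or 9.84-fold lower in Tc9 cells. The Tc1 libraries differed from each other by 0.09 on the log2 scale, whereas the Tc9 libraries, at 17 and 6 counts, differed by 1.5. The size of the difference accordingly depended on which Tc9 library was used: the log2 fold change was -4.22 without Tc9 replicate 1 and -2.74 without Tc9 replicate 2. *Cd36* was a weakly expressed gene in both groups, at 1.03 and 1.09 FPKM (fragments scaled by transcript length and library depth) in Tc1 cells and 0.16 and 0.06 FPKM in Tc9 cells. On a log2(FPKM + 1) scale, which compresses levels this low, the difference shrank to -0.89. In bulk RNA, fewer cells with *Cd36* and less *Cd36* RNA per cell cannot be told apart.

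*Slc27a1* and *Slc27a4* encode the transport proteins FATP1 and FATP4, which promote uptake of long-chain fatty acids and have acyl-CoA synthetase activity of their own. *Slc27a1* had 86 counts in Tc1 replicate 2 and 224 counts in Tc9 replicate 2, or 0.84 and 2.29 FPKM. The log2 ratio was 1.36, a 2.57-fold higher level in the Tc9 library, with a 95% counting interval from 1.02 to 1.74. Of its 50-base transcript stretches, 1.43% also occur in other annotated genes. *Slc27a4*, the more abundant transporter, had 492 and 1347 counts, or 3.98 and 11.3 FPKM. Its log2 ratio was 1.45, a 2.73-fold higher level in the Tc9 library, with an interval from 1.31 to 1.60. These intervals cover counting error only, there was 1 library per group, and the differences had no replicate check. On the log2(FPKM + 1) scale the differences were 0.84 for *Slc27a1* and 1.30 for *Slc27a4*. In the replicate 2 libraries *Cd36* had a log2 ratio of -3.91, with a counting interval from -5.45 to -3.14. *Cd36* and *Slc27a1* thus stood at similar levels in Tc1 replicate 2, at 1.09 and 0.84 FPKM, and far apart in Tc9 replicate 2, at 0.06 and 2.29 FPKM.

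**Figure D1:**
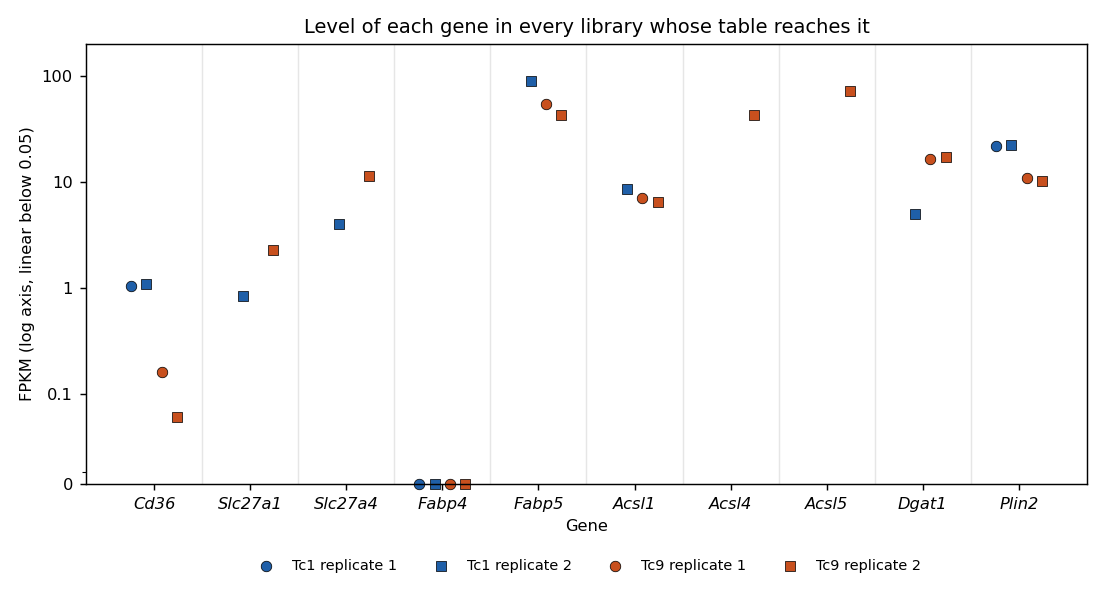
FPKM of each of the 10 genes (x axis) on a log axis that is linear below 0.05 (y axis), with 1 point per library whose table reaches the gene, blue for Tc1 and orange for Tc9, circles for replicate 1 and squares for replicate 2. *Cd36* and *Plin2* sit lower in both Tc9 libraries, *Slc27a1*, *Slc27a4* and *Dgat1* sit higher in Tc9, and *Fabp4* is at 0 in all 4 libraries.

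Of the cytosolic binding proteins, *Fabp5*, the epidermal type, was expressed and *Fabp4*, the adipocyte type, was not detected. *Fabp4* was listed in none of the tables and was read as 0 counts in all 4 libraries, since the tables list no gene at 0. The *Fabp5* expected count was 2321 in Tc1 replicate 2, against 1398 and 1073 for Tc9 replicates 1 and 2. The Tc1 library lay above both Tc9 libraries. The levels were 88.81 FPKM in the Tc1 library and 54.61 and 42.34 FPKM in the Tc9 libraries, a log2 fold change of -0.91 ± 0.24 (SE), or 1.88-fold lower in Tc9 cells. The Tc9 libraries differed from each other by 0.38 on the log2 scale. Some *Fabp5* counts were not whole numbers, and the cause was not tested. Of the 50-base stretches of its transcripts, 5.48% also occur in 5 other annotated genes, among them *Gm6166* and *Fabp5l2*, so reads from these stretches cannot be assigned to 1 gene.

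Among the acyl-CoA synthetases, the *Acsl1* difference was small, and *Acsl4* and *Acsl5* could be measured in 1 Tc9 library only. *Acsl1*, which encodes the main synthetase of adipose tissue, muscle and liver, reached 1037 counts in Tc1 replicate 2, against 828 and 754 in the Tc9 libraries. The Tc1 library was again the highest, although the differences were small. The FPKM values were 8.57 against 7.03 and 6.46, and the log2 fold change was -0.39 ± 0.20 (SE), against a difference of 0.14 between the Tc9 libraries. *Acsl4*, whose product prefers arachidonic acid and other polyunsaturated fatty acids, had 6623 counts or 42.79 FPKM in Tc9 replicate 2. *Acsl5*, which encodes a synthetase of mitochondria and endoplasmic reticulum, had 6713 counts or 71.94 FPKM there, above 93.1% of the genes listed. No comparison with Tc1 cells was made for either gene here.

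The genes for storage of fatty acids went apart. *Dgat1* encodes the diacylglycerol acyltransferase of the last step of triglyceride synthesis, and its count was 456 in Tc1 replicate 2, against 1361 and 1460 in the Tc9 libraries. Both Tc9 libraries lay far above the Tc1 library and close to each other, 0.10 apart on the log2 scale. The levels were 4.94 FPKM in the Tc1 library and 16.34 and 17.17 FPKM in the Tc9 libraries, a log2 fold change of 1.63 ± 0.22 (SE), or 3.1-fold higher in Tc9 cells. The transcript length that the authors' tables give for *Dgat1*, which follows the mix of its isoforms, was 3027 bases in Tc1 replicate 2 and 2817 and 2899 bases in the Tc9 libraries. Between the replicate 2 libraries, 6.53% of 4838 genes had a larger change in length. *Plin2* encodes perilipin 2, a protein that coats lipid droplets, and its counts were 1238 and 1248 in Tc1, against 598 and 555 in the Tc9 libraries. All *Plin2* values within a group were close, and both Tc9 libraries lay below both Tc1 libraries. The level was 39.5 ± 0.332 CPM (SD, n = 2) in Tc1 cells and 18.4 ± 0.965 CPM (SD, n = 2) in Tc9 cells, a log2 fold change of -1.10 ± 0.12 (SE), or 2.15-fold lower. *Plin2* shares 2.57% of its 50-base stretches with 1 other gene, *Gm12551*.

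**Figure D2:**
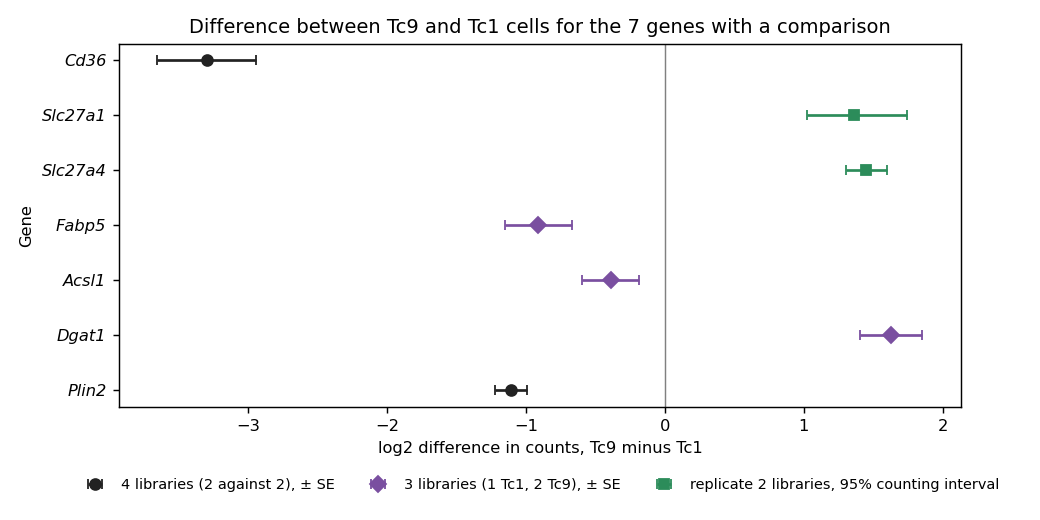
Log2 difference in counts, Tc9 minus Tc1 (x axis), for the 7 genes with a comparison (y axis); black circles are fits of 4 libraries and purple diamonds fits of 3 libraries, both with bars of ± 1 SE, and green squares are ratios of the replicate 2 libraries with 95% counting intervals. *Cd36*, *Fabp5*, *Acsl1* and *Plin2* lie below 0, from -3.30 to -0.39, and *Slc27a1*, *Slc27a4* and *Dgat1* lie above 0, from 1.36 to 1.63.

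The counts of genes called have to be read against the share called among all genes, and for these 10 genes they were fixed in part by how the genes were picked. In the fit of 4 libraries, 2 of the 3 genes in reach, *Cd36* and *Plin2*, passed the filter on low counts, and both were among the genes lower at an adjusted p under 0.05 by edgeR's quasi-likelihood test. Since the genes were picked on this contrast, that is a count and no test of them. Of all 1284 genes tested in that fit, 16.7% were called lower and 17.4% were called higher in Tc9 cells. In the fit of 3 libraries, *Dgat1* was called higher and *Fabp5* and *Acsl1* were not called, while 7.54% of 2613 genes were called higher and 3.21% lower. This fit has 1 Tc1 library, which is assumed to vary like the Tc9 libraries, and without the filter on low counts it called neither *Dgat1* nor any other gene, although 598 genes had an unadjusted p under 0.05. With the filter, DESeq2 called 217 genes higher and 121 lower. Between the replicate 2 libraries, 7 of the 8 genes in reach passed the filter, of which *Slc27a1*, *Slc27a4* and *Dgat1* were more than 2-fold higher and *Cd36*, *Fabp5* and *Plin2* more than 2-fold lower. Among 6161 genes compared there, 10.5% were more than 2-fold higher and 4.72% more than 2-fold lower. The 3 comparisons share libraries and are not independent of each other. The median difference over all genes was 0.00 to 0.05 on the log2 scale in the 3 comparisons, so the values of single genes are relative to a center close to 0.

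**Figure D3:**
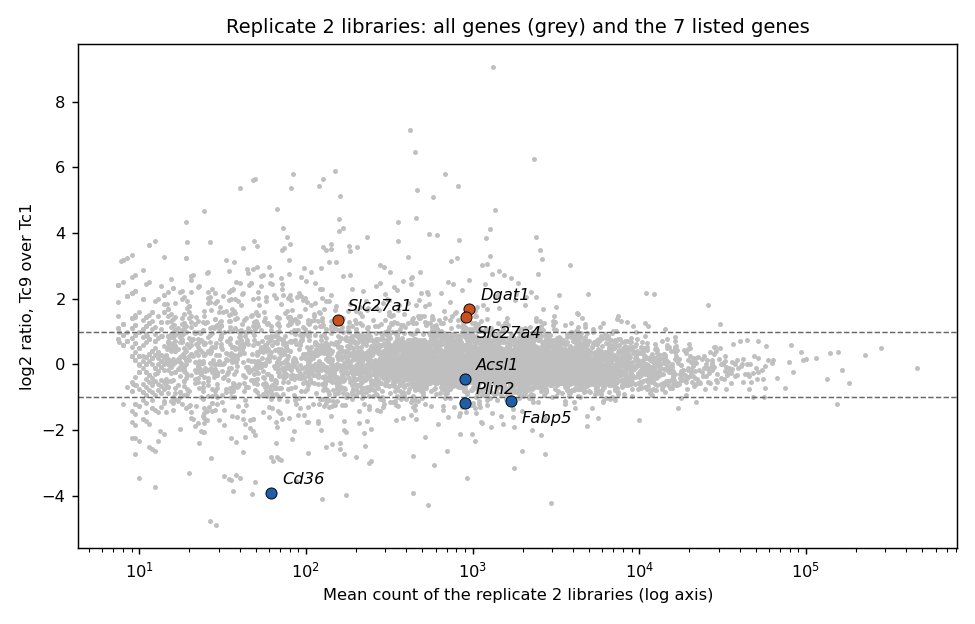
Log2 ratio of Tc9 replicate 2 over Tc1 replicate 2 (y axis) against the mean count of these libraries on a log axis (x axis), for the genes compared (grey) and the 7 measured genes of fatty acid handling (orange above 0, blue below 0), with dashed lines at a 2-fold change. *Cd36* lies at -3.91 with a low mean count, *Slc27a1*, *Slc27a4* and *Dgat1* lie above the upper line, and *Acsl1* lies between the lines at -0.46.

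Within Tc9 replicate 2, the only library whose table reached every member, the levels ranged from *Acsl5*, the most abundant, to *Fabp4* at 0. Per transcript length, *Acsl5* came first at 71.94 FPKM, with a 95% exact Poisson interval from 70.2 to 73.7, followed by *Acsl4* at 42.79 (41.8 to 43.8) and *Fabp5* at 42.34 (39.8 to 45). *Acsl4* and *Fabp5* did not differ beyond counting error. *Dgat1* came next at 17.17 FPKM (16.3 to 18.1), before *Slc27a4* at 11.3 (10.7 to 11.9) and *Plin2* at 10.21 (9.38 to 11.1). The intervals of *Slc27a4* and *Plin2* overlapped, which is no test of their difference. *Acsl1* at 6.46 (6.01 to 6.94), *Slc27a1* at 2.29 (2 to 2.61) and *Cd36* at 0.06 (0.022 to 0.131) were the lowest detected. In Tc1 replicate 2, *Plin2* stood at 22.15 FPKM, above *Dgat1* at 4.94 FPKM, whereas in Tc9 replicate 2 *Dgat1* was above *Plin2*.

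Because *Cd36* is known as a gene of macrophages, endothelial cells, adipocytes and platelets, markers of these cells were counted in the same libraries. All 6 adipocyte markers in reach of the replicate 2 libraries, *Adipoq* among them, were at 0 in both, and *Cidec* had 1 count in Tc9 replicate 1. Of the 12 macrophage and monocyte markers, 10 had 3 counts or fewer in both replicate 2 libraries, *C1qc* was at 0, and *Lyz2* was at 0 in Tc1 replicate 2, against 3 and 0 counts in the Tc9 libraries. The summed level of the 6 macrophage markers in reach of all libraries was 7.23 and 7.17 CPM in Tc1 and 11.4 and 14.1 CPM in Tc9 cells. Nearly all of it was *Cd68*, at 226 and 221 counts in Tc1, against 358 and 439 in Tc9 cells. *Cd68* was called higher in Tc9 cells (log2 fold change 0.84 ± 0.15, adjusted p = 0.00295, edgeR). *Itgam*, the other macrophage marker above 3 counts, was at 12 counts in Tc1 replicate 2, against 9 and 2 in the Tc9 libraries. Of the platelet markers, *Itgb3* was at 261 counts in Tc1 replicate 2, against 2147 and 2167 in the Tc9 libraries. Its log2 fold change was 3.05 ± 0.25 (SE) in the fit of 3 libraries. *Itgb3* made up most of the sum of the 3 platelet markers in reach, which was 10.6 CPM in Tc1 and 71.4 CPM in Tc9 replicate 2. *Itga2b* was at 67 counts in Tc1 replicate 2, against 62 and 71 in the Tc9 libraries, and *Gp1bb* at 3.34, against 0 and 2.21. In Tc9 replicate 2, whose table alone reached them, *Pf4*, *Ppbp* and *Gp9* were at 4, 1 and 0 counts. The part of macrophages and platelets in the *Cd36* result was not tested.

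Of 8 endothelial markers in reach of the replicate 2 libraries, 5 had 3 counts or fewer in both. Their summed level was 31.3 CPM in Tc1 and 44.6 CPM in Tc9 replicate 2, mostly from *Eng* and *Pecam1*, and *Cdh5*, *Cldn5* and *Tie1* had at most 1 count in any library in reach. *Vwf*, which encodes von Willebrand factor of endothelium and platelets, moved in the direction of *Cd36*, with 18 counts in Tc1 and 6 in Tc9 replicate 2. Its part in the *Cd36* result was not tested. Of 5 melanoma markers in reach of these libraries, *Tyrp1* and *Dct* were at 0, and the summed level was 2.61 CPM in Tc1 and 4.28 CPM in Tc9 replicate 2, mostly from *Pmel*. Its part in the results for the higher genes *Slc27a1*, *Slc27a4* and *Dgat1* was not tested.

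The other genes of fatty acid handling were counted from 6 lists with 121 genes in all. Of 11 genes tested in 4 libraries, 2 were higher and 1 was lower in Tc9 cells, where 17.4% and 16.7% of all genes were called, and their median log2 fold change was 0.08 beside 0.00 for all genes tested. The number called by edgeR, 3 in all, was 1 without either Tc1 library, 8 without Tc9 replicate 1 and 5 without Tc9 replicate 2. Of 16 genes tested in 3 libraries, edgeR, DESeq2 and limma each called 0, although 3 had an unadjusted p under 0.05 by edgeR and 2 by DESeq2 and by limma, and the median was 0.33 beside 0.05 for all genes. Of 21 genes compared between the replicate 2 libraries, 5 were more than 2-fold higher and none was more than 2-fold lower, where 10.5% and 4.72% of all genes were, with a median log2 ratio of 0.44 beside 0.03 for all genes. A further 42 genes were reached by Tc9 replicate 2 alone.

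Other receptors and entry genes numbered 26. *Olr1*, which encodes LOX-1, a scavenger receptor of oxidized lipoproteins, was at 29 and 27 counts in Tc1 cells, against 237 and 220 in Tc9 cells. It was higher in Tc9 cells by 3.03 ± 0.21 on the log2 scale (adjusted p = 6.91e-06, edgeR), opposite in direction to *Cd36*, the other receptor of oxidized lipoproteins named here. *Ffar4*, a G protein-coupled receptor for long-chain fatty acids, was at 32 and 38 counts in Tc1 cells, against 15 and 13 in Tc9 cells. Its log2 fold change was -1.31 ± 0.32 (adjusted p = 0.0121, edgeR), and the call was lost with DESeq2 (adjusted p = 0.104) and when either Tc1 library was left out (edgeR, adjusted p = 0.08 without replicate 1 and 0.147 without replicate 2). On the log2(FPKM + 1) scale the differences were 1.33 for *Olr1* and -0.46 for *Ffar4*. *Vldlr*, which encodes the receptor for very low density lipoproteins, had 196 counts in Tc1 and 463 counts in Tc9 replicate 2. Its log2 ratio was 1.23, with a counting interval from 1 to 1.48.

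Other genes act beside *Acsl1*, *Dgat1* and *Plin2* in activation, storage and release of fatty acids. Of 19 other acyl-CoA synthetases and thioesterases, 3 could be compared, with log2 differences from -0.74 to 0.26 that did not pass a threshold. Of 28 genes of triglyceride synthesis and lipid droplets, 9 could be compared, and *Soat1*, which esterifies cholesterol for storage in droplets, was the one past 2-fold, with 730 counts in Tc1 and 1467 in Tc9 replicate 2. Its log2 ratio of 1.01 had a counting interval from 0.88 to 1.14, which reached below the 2-fold line. Of 10 genes of lipolysis, 5 could be compared, and *Mgll*, which encodes monoglyceride lipase, differed most: the Tc1 library held 154 counts and the Tc9 library 1460, for a log2 ratio of 3.23 with a counting interval from 3.01 to 3.49.

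Nuclear receptors of the PPAR family and their RXR partners are known to bind pairs of the half-site shown above and to induce *Cd36*, *Plin2*, *Fabp4* and *Acsl1* in many tissues. *Pparg* had 41 counts in Tc1 and 209 counts in Tc9 replicate 2, a log2 ratio of 2.30 with a counting interval from 1.87 to 2.83. *Rxra* had 738 and 2880 counts, a log2 ratio of 1.96 (1.85 to 2.08), while *Ppard* had 395 and 431 counts. These are ratios of 1 library per group, and the part of these receptors in the levels of the members was not tested. Of 18 genes of mitochondrial beta oxidation, 12 could be compared and *Acadm*, the medium-chain acyl-CoA dehydrogenase, was the one called, at 673 and 688 counts in Tc1, against 1061 and 822 in Tc9 cells. Its log2 fold change was 0.47 ± 0.14 (adjusted p = 0.0288, edgeR), and the call was lost without the filter on low counts (adjusted p = 0.11). It was also lost when either Tc1 library was left out (edgeR, adjusted p = 0.303 without replicate 1 and 0.236 without replicate 2), and the log2 fold change was 0.28 without Tc9 replicate 1 and 0.64 without Tc9 replicate 2. *Cpt1a*, which encodes the carnitine palmitoyltransferase that admits long-chain acyl-CoA to mitochondria, was compared in 3 libraries, with 1 Tc1 library at 1364 counts, against 1742 and 1892 for Tc9, and was not called (log2 fold change 0.41 ± 0.21, adjusted p = 0.279, edgeR).

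**Figure D4:**
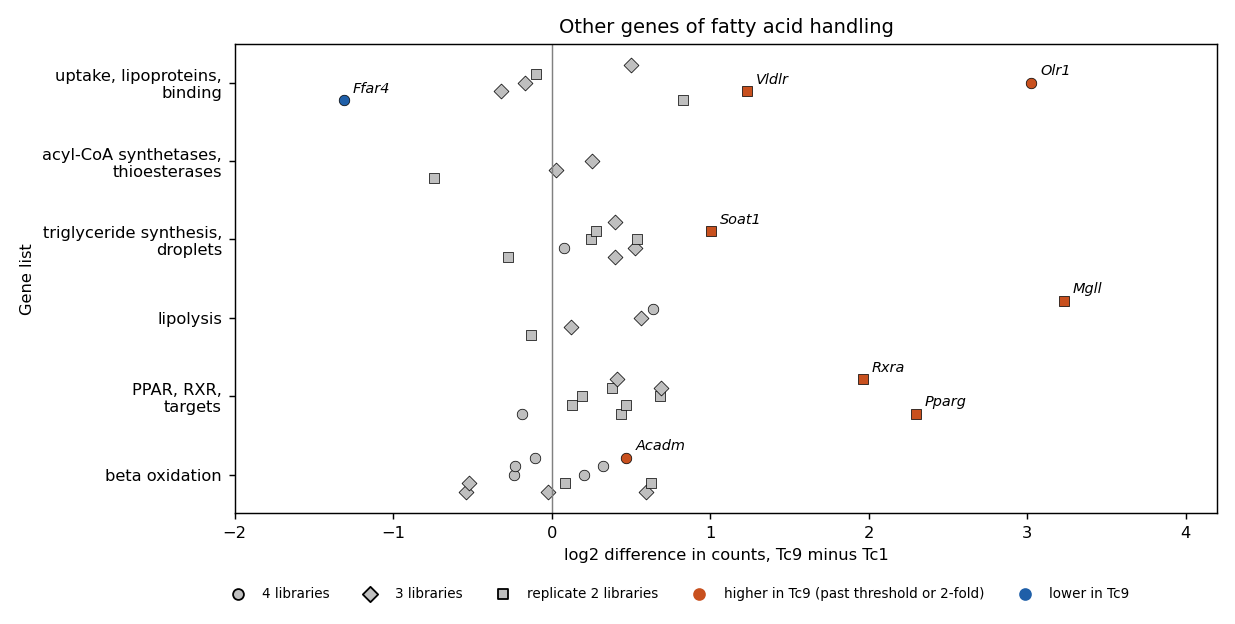
Log2 difference in counts, Tc9 minus Tc1 (x axis), for the other genes of fatty acid handling that could be compared, by list (y axis); the shape gives the libraries compared, orange and blue mark genes past the adjusted p of 0.05 or, for the replicate 2 libraries, past 2-fold, and grey marks the others. *Ffar4* is the one gene marked lower, and *Olr1* at 3.03 and *Mgll* at 3.23 lie farthest to the right.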

How the data were processed

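RNA-Seq libraries of sorted Tc1 and Tc9 cells, 2 per group, were sequenced as DNA nanoballs at BGI. The authors deposited, per gene, an expected count without normalization, an FPKM value scaled by transcript length and by library size, and that length. The submitters' processing notes name the mm10 build, and the aligner and counting program are not given in the sources used here. Sequences and coordinates come from RefSeq (GRCm38.p6), shared 50-base stretches from GENCODE M21.

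Each of the 4 tables ends at another point of the gene order, so each comparison used the range its libraries share. A gene not listed within a range was read as 0, and 1 incomplete last line was dropped. The design had planned for such ranges. Depth came from how counts relate to FPKM in genes with at least 500 counts, relative to Tc9 replicate 2, whose table sums to its depth. Expected counts were rounded, filtered with filterByExpr (minimum count 10), scaled by TMM factors (0.983 to 1.02) and tested, two-sided, with edgeR 4.0.16 in R 4.3.3 with Benjamini-Hochberg adjustment over all genes tested. For the replicate 2 libraries, log2 ratios used a prior count of 2 and 95% Wilson intervals; intervals and limits cover counting error only. CPM values are counts scaled to the TMM-adjusted depth.

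The libraries of a group differed beyond sampling noise (chi-square per gene 4.47 in Tc1 and 41.9 in Tc9), but nothing says that they hold different mice, so p-values measure the spread between these libraries. An exact permutation test of 2 against 2 cannot give a p below 0.333 and was not used. The members, lists and tests were chosen with earlier results of these data known. All members are named, and from each other list up to 4 genes per direction past the threshold, or up to 3 past 2-fold. *Ppard*, *Cpt1a*, the other *Slc27a* genes and several marker genes were named after their values were seen. So were the genes of the last section that were measured in Tc9 replicate 2 alone. In simulated data edgeR recovered 97% of 2-fold changes in the comparison of 4 libraries (1279 genes) and 94% in that of 3 libraries (2591 genes). In the comparison of 4 libraries, 9 of 206 calls were false. The simulated counts had the same dispersion in every gene and no difference in TMM factors, so these rates hold for that setting only. Alternatives were other filters and scalings, DESeq2 1.42.0, limma 3.58.1 on log2 FPKM with a pseudocount of 1 or 0.1, a replicate block and leaving out each library. Results of a few other genes are not given here. The list of alternatives for calls of single pathway genes was added after seeing the data.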

Additional observations from a re-analysis of the deposited data

How the results depend on the processing

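No alternative run reversed the direction of the 7 members that could be compared. The *Cd36* log2 fold change ran from -0.89 on log2(FPKM + 1) to -4.22 without Tc9 replicate 1, and 10 alternative values of these members moved beyond the spread of replicates or, for the replicate 2 ratios, beyond the counting interval. The counts of all genes called depended more on the settings, and the cause was not tested. In 4 libraries, the 224 higher and 214 lower genes became 130 and 110 without the filter on low counts. Leaving out each library gave 72 to 405 higher and 39 to 405 lower genes, lowest without Tc1 replicate 1 (72 and 39) and Tc1 replicate 2 (79 and 52), and highest without Tc9 replicate 1 (405 and 405) and Tc9 replicate 2 (343 and 350). In 3 libraries, the 197 higher and 84 lower genes became 305 and 154 at a minimum count of 30 and 371 and 163 with depth alone, and at an adjusted p under 0.1 the lower genes were 144. Without a filter, edgeR called 0 higher and 0 lower genes, with 598 genes at an unadjusted p under 0.05, while DESeq2 with the filter called 217 and 121. Between the replicate 2 libraries, the 647 and 291 genes past 2-fold became 272 and 109 on log2(FPKM + 1). With the replicate number as a replicate block, 231 genes were higher and 213 lower in 4 libraries, 406 of them shared with the 438 of the fit without it. Nothing in the labels pairs the libraries, and the deviations of same-numbered libraries correlated at -0.0652. Pools of mice, 1 Tc1 library for 5 members and counts of 17 and 6 for *Cd36* limit what these values can show.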

Other observations

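Several partners of the members were reached by Tc9 replicate 2 alone and belong in no comparison. There, the thioesterase gene *Acot7*, whose product splits acyl-CoA back into fatty acid and coenzyme A, had 4240 counts or 101.4 FPKM, above *Acsl5* at 71.94 FPKM. *Acsl3*, another long-chain acyl-CoA synthetase, stood at 7.04 FPKM, close to *Acsl1* at 6.46 FPKM. *Dgat2*, the other enzyme of the last step of triglyceride synthesis, had 209 counts or 3.21 FPKM, below *Dgat1* at 17.17 FPKM. Of the perilipins, *Plin3* stood at 17.51 FPKM, *Plin2* at 10.21 FPKM and *Plin4* at 0.09 FPKM, and *Plin5* was read as 0. *Pnpla2*, which encodes adipose triglyceride lipase, stood at 37.96 FPKM, and *Abhd5*, which encodes its activator, at 2.78 FPKM.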
